A study of Homo sapiens with 4 samples.

Results

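Histone genes fall into a replication-dependent set and a set of variants, and both were followed in HEK293T cells after RNA interference against CHD6. The genes were taken as the array features whose platform annotation named exactly 1 gene with a histone symbol, without pseudogenes (4 were dropped), and features of 1 gene were averaged. This gave 80 histone genes, measured by 113 features, of 18334 genes in all. A gene was counted as replication-dependent where its older symbol placed it in the HIST1 to HIST4 clusters (66 genes), and as a variant otherwise (14 genes). HEK293T cells descend from human embryonic kidney and express the large T antigen of SV40, while CHD6 uses ATP to move or remodel nucleosomes and belongs to the CHD proteins. Cells transfected with plasmids that express a siRNA against CHD6 were compared with cells transfected with plasmids that express a control siRNA, both as bulk RNA taken 48 h later. Each of the 4 arrays held both kinds of cells in direct competition. The CHD6 siRNA sample was in Hy5 on replicates 2 and 4 and in Cy3 on replicates 1 and 3.

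Replication-dependent histone genes supply the H1, H2A, H2B, H3 and H4 proteins that package newly made DNA, and they are transcribed mainly in S phase from dense gene clusters. Their mRNAs usually end in a stem-loop that is bound by SLBP in place of a poly(A) tail. Variant genes lie outside these clusters, are mostly polyadenylated and are expressed through the cell cycle; H3.3, H2A.Z, H2A.X and macroH2A are the best known. The RNA was amplified here from an oligo-dT primer, so a replication-dependent transcript entered the measurement as far as it could be primed that way, and how far that was is not known. Many histone genes are also near-identical in sequence, so a feature may read several of them; its part in the values below was not tested.

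Values are log ratios of CHD6 siRNA over control siRNA, taken as log2. The base, the centring and the direction are not stated in the sources used here, and the direction is called likely, from the order of the conditions in the array titles. Column medians over all 45220 features were -0.02, 0.03, -0.02 and 0.02 on replicates 1 to 4. Over all features, pairs of arrays with equal dye orientation had correlations of 0.79 to 0.80 and pairs with opposite orientation had -0.84 to -0.68, so the direction over all features is not settled. For that reason the value with the columns turned by dye, which is the dye coefficient of the model, is given beside the main results. The targeted gene, CHD6, was at -0.42, -0.43, -0.28 and -0.65 on replicates 1 to 4. It averaged -0.45 ± 0.15 (SD, n = 4; adjusted p = 0.134 by limma) over its 3 features, and 1 of them was at -1.15 ± 0.24 (SD, n = 4; adjusted p over features = 0.0339 by limma, passed by 0.0199% of features), with the others at -0.02 and -0.17. Turned by dye the gene would be at -0.095 (adjusted p = 0.346 by limma) and that feature at -0.16, since it was below 0 on all 4 arrays as deposited (-1.13, -1.21, -0.85 and -1.42 on replicates 1 to 4). This measurement of the targeted gene thus goes with the direction as deposited. With the median over features in place of the mean, CHD6 was at -0.20 (adjusted p = 0.573 by limma). Log ratios hold no level, so the identity of the line could not be checked by its markers. Of 14 measured markers of other cell types, 0 had an unadjusted p under 0.05, against 9.37% of all genes, and their median was 0.02. The labels do not say that the replicates came from separate cultures, and the spread behind each p-value may thus be technical.

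No histone gene passed the test for a difference between CHD6 siRNA and control cells. limma with dye orientation as a coefficient called 0 of 80 at an adjusted p under 0.05 (smallest adjusted p = 0.117, H4C11), against 0.0218% of all genes. At an unadjusted p under 0.05 there were 33 histone genes, 27 above and 6 below 0, against 9.37% of all genes (4.97% above and 4.4% below). With the intercept alone the count was 5, against 1.32% of all genes, and 0 passed the adjustment. In bulk RNA, a different share of cells in S phase and a different amount of histone RNA per cell cannot be told apart.

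In the columns as deposited, the replication-dependent genes lay mostly above 0 and the variants did not, a contrast that was not there with the columns turned by dye. Of 66 replication-dependent genes, 56 had a mean above 0, with a median of 0.15, while 6 of 14 variants did, with a median of -0.02. Turned by dye, 45 of 66 and 11 of 14 would be above 0. Over all genes, as deposited, 49.1% had a mean above 0 and 50.5% below, and the median was -0.0025. Turned by dye, 10443 of all 18334 genes would be above 0, with a median of 0.034. By family, as deposited, 18 of 18 H2B, 14 of 15 H2A, 13 of 14 H4 and 5 of 6 H1 genes of the clusters were above 0, and 6 of 13 H3 genes. Turned by dye these counts would be 12 for H2B, 13 for H2A, 10 for H4, 4 for H1 and 6 for H3. As deposited and without the H3 genes the count was 50 of 53. These are descriptions of genes that share arrays and, in part, sequence, and no test of the groups was made.

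**Figure D1:**
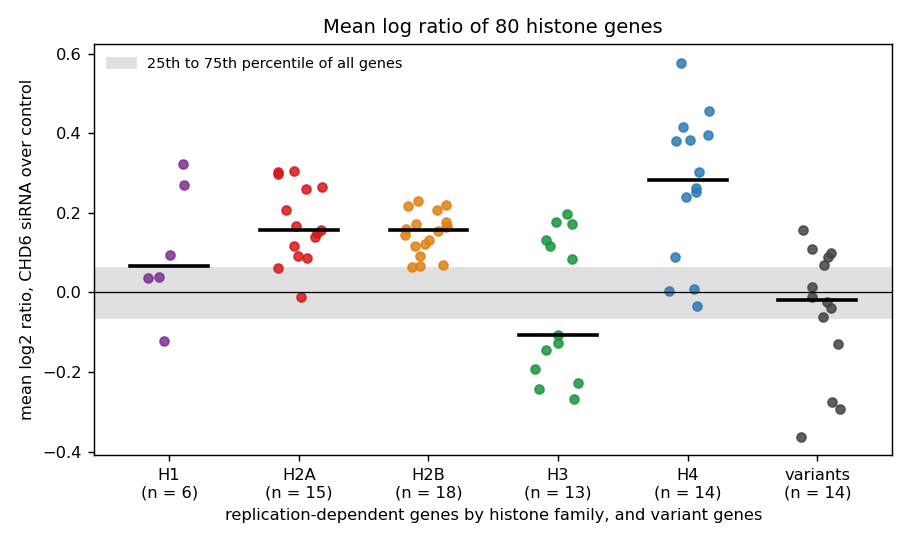
Mean log2 ratio over 4 arrays (vertical axis) of each histone gene (points), by family for the replication-dependent genes and for the variants, with the median of each as a bar and the 25th to 75th percentile of all genes (-0.065 to 0.062) shaded. H2A, H2B and H4 lie almost wholly above 0, H3 splits to both sides and the variants centre near 0.

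The replication-dependent median was above the variant median on 3 of 4 arrays. The median of the replication-dependent genes was 0.26 and 0.23 on replicates 2 and 4, where the siRNA sample was in Hy5, and 0.04 and -0.15 on replicates 1 and 3. The variants had medians of 0.11 and 0.16 on replicates 2 and 4 and of -0.21 and -0.08 on replicates 1 and 3. Both sets therefore lay higher in the Hy5 orientation. The replication-dependent median was above that of the variants by 0.15, 0.07 and 0.25 on replicates 2, 4 and 1, and below it by 0.065 on replicate 3. Turned by dye, the medians would be 0.11 for the replication-dependent genes and 0.085 for the variants, a difference of 0.02.

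**Figure D2:**
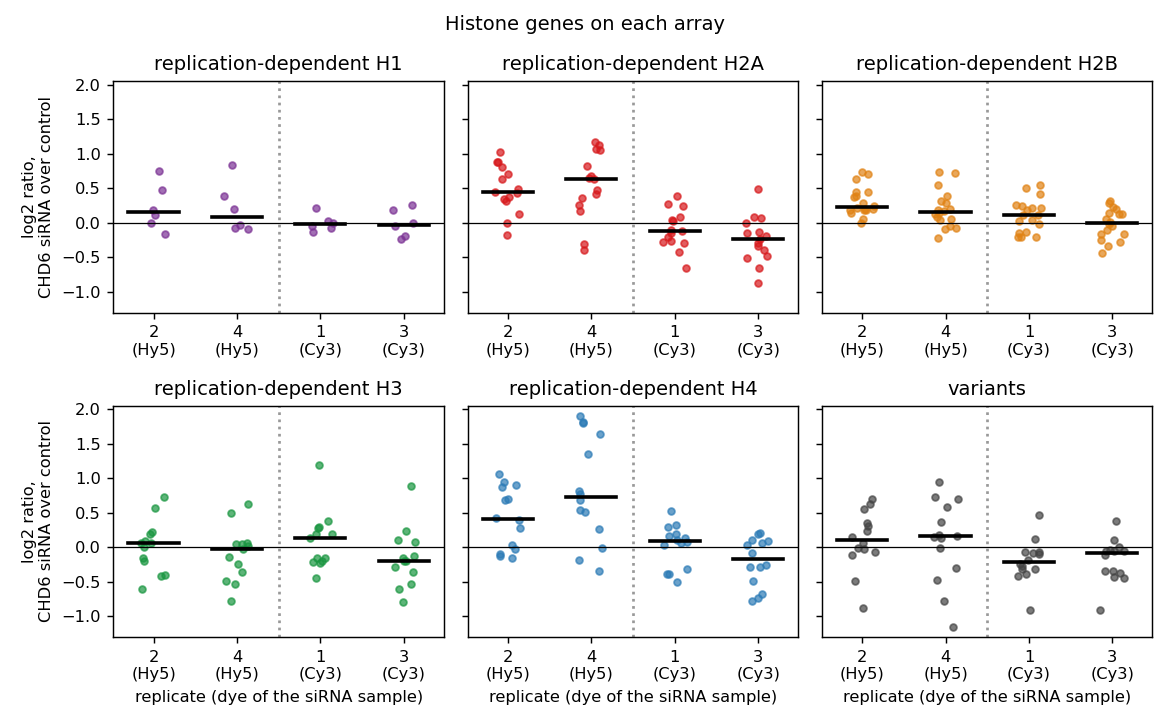
Log2 ratio of each histone gene (points) on each array, with the family median as a bar and arrays grouped by the dye of the CHD6 siRNA sample. H2A and H4 medians are above 0 in the Hy5 orientation and lower in the Cy3 orientation, and H2B medians stay close to or above 0 on all 4 arrays.

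The H4 genes held the largest values. H4 is the most conserved core histone and is encoded by many genes of the same protein sequence. The median of the 14 H4 genes was 0.28. Of them, 9 had an unadjusted p under 0.05, all above 0, against 9.37% of all genes (4.97% above 0). H4C11 was at 1.07 and 1.35 on replicates 2 and 4 and at 0.14 and -0.25 on replicates 1 and 3. Its mean of 0.58 (SE 0.089; adjusted p = 0.117 by limma) ranked 9 from the highest of 18334 genes in the columns as deposited. Turned by dye it would be at 0.63 (adjusted p = 0.00083 by limma), below H4C4, H4C13 and H4C2. H4C12 was at 0.70 and 0.77 in the Hy5 orientation and at 0.29 and 0.06 in the other, all above 0. Its mean of 0.46 (SE 0.072) ranked 35 from the highest and missed the threshold as well (adjusted p = 0.120 by limma), while turned by dye it would be at 0.28 (adjusted p = 0.014 by limma).

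H4C11 and H4C12 both lie in the HIST1 cluster on chromosome 6, and their RefSeq promoters were the same at 295 of 300 aligned positions. The promoter windows of several H4 genes are shown because they hold a short element at a near-constant place. In these 50-base windows, from 70 to 21 bases before the annotated start (RefSeq, GRCh38.p14, read along the gene), capitals mark GGTCCG. The first 5 are the genes with the highest means that had a promoter sequence, and the last 2 have means near 0.
H4C11 (chr6:27824022-27824071, plus strand): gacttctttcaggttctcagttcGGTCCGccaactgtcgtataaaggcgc
H4C12 (chr6:27831581-27831630, minus strand): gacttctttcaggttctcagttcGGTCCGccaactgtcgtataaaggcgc
H4C13 (chr6:27873555-27873604, minus strand): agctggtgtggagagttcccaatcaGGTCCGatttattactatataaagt
H4C4 (chr6:26189133-26189182, minus strand): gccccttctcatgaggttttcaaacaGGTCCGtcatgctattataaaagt
H4C2 (chr6:26027304-26027353, minus strand): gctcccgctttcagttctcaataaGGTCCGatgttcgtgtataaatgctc
H4C5 (chr6:26204540-26204589, plus strand): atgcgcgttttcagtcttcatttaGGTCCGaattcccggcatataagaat
H4C16 (chr12:14771152-14771201, minus strand): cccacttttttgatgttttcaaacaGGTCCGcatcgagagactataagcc

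GGTCCG, searched on both strands, was found in 11 of 12 H4 promoters, each time 44 to 47 bases before the start, against 11.2% of all 27305 promoters of the same length. It lies within the element known to be bound by HINFP, a zinc finger activator of H4 genes, and was chosen after these promoters were seen. Whether the element goes with the values could not be tested, since only 1 of 12 promoters lacks it. That gene, H4C7, had a mean of 0.09, and the 11 genes with the element had a median of 0.30. H4C5 (mean 0.0025) and H4C16 (mean -0.035) carry it too. The 250 bases before the start of H4C11, the histone gene with the highest mean, run as follows with GGTCCG in capitals (RefSeq, GRCh38.p14).
H4C11 promoter (chr6:27823842-27824091, plus strand): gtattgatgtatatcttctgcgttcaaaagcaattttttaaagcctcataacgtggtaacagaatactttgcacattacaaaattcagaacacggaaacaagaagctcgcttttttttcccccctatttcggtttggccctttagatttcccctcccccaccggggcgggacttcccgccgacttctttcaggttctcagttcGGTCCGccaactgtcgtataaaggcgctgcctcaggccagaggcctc

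A further 4 H4 genes gave values that were almost alike on each array and went with the dye. H4C13 was at 0.88 and 1.90 on replicates 2 and 4 and at -0.38 and -0.74 on replicates 1 and 3. H4C4 was at 0.95 and 1.81 on replicates 2 and 4, against -0.50 and -0.68 on replicates 1 and 3. H4C2 had 0.90 and 1.80 in the Hy5 orientation and -0.39 and -0.78 in the Cy3 orientation. Each had opposite signs in the dye orientations, and replicate 4 stood well above replicate 2. H4C3 followed the same course (0.68 and 1.64, then -0.32 and -0.48). Their means were 0.38 to 0.42 and would be 0.78 to 0.985 with the columns turned by dye, so they are above 0 under both readings. In the Hy5 orientation replicate 4 alone was at 1.64 to 1.90. Without it the fitted log ratios of H4C13, H4C4, H4C2 and H4C3 were 0.16, 0.18, 0.16 and 0.14. The fit weighs both dye orientations equally, and the plain means of the remaining arrays were below 0.

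Other H4 genes showed less of the dye. H4C6 was above 0 on all 4 arrays (0.32, 0.42, 0.04 and 0.27 on replicates 1 to 4; mean 0.26 ± 0.16, SD, n = 4). H4C8 was at 0.53, -0.03, 0.20 and 0.51 on replicates 1 to 4, and had a mean of 0.30. H4C15 and H4C9 had means of 0.25 and 0.24, and H4C7 one of 0.09. H4C1, H4C5 and H4C16 had means of 0.0075, 0.0025 and -0.035. The values of H4 genes thus ran from near 0 to 0.58. The SD of a gene over the arrays had a median of 0.38, which includes the dye difference that the fit takes out. Fitted SEs ran from 0.067 (H4C16) to 0.15 (H4C13), so the order within the family is loose, above all where means are close.

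The H2B genes had the narrowest range of means among H2A, H2B, H3 and H4. H2B pairs with H2A in the dimers that flank the H3 and H4 tetramer of the nucleosome. All 18 had means above 0, from 0.065 (H2BC18) to 0.23 (H2BC6), with a median of 0.16. An unadjusted p under 0.05 was found for 7, all above 0, against 9.37% of all genes (4.97% above 0). Turned by dye, 12 of the 18 would be above 0, against 10443 of all 18334 genes. The median H2B value was 0.22 over the Hy5 arrays and 0.07 over the Cy3 arrays. The smallest adjusted p of the family was 0.367 by limma. H2BC14 was above 0 on each array, at 0.54, 0.06, 0.20 and 0.08 on replicates 1 to 4 (mean 0.22 ± 0.22, SD, n = 4). H2BC9 had 0.26, 0.20, 0.13 and 0.12, the smallest spread of the named H2B genes (mean 0.18 ± 0.07, SD, n = 4). H2BC15 was at 0.18, 0.18, 0.01 and 0.29 (mean 0.17 ± 0.12, SD, n = 4) as the average of 2 features. Of these, 1 was at -0.10 on replicate 2 and the other at -0.31 on replicate 3. The dye orientations overlapped in H2BC9 and met at 0.18 in H2BC15, whereas in H2BC14 both Cy3 arrays were above both Hy5 arrays. By contrast, H2BC6, H2BC7 and H2BC13 had 0.55 to 0.74 on replicates 2 and 4 and -0.44 to -0.155 on replicates 1 and 3, so that their means of 0.23, 0.21 and 0.17 joined values of opposite sign.

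H2A and H2B genes are often arranged head to head, and their promoters share an octamer, ATTTGCAT, that is bound by OCT1. The windows from 70 to 21 bases before the start (RefSeq, GRCh38.p14) show it in capitals for H2BC14 and H2BC9, which were above 0 on all 4 arrays, and for H2BC8 and the lowest gene of the family, H2BC18.
H2BC14 (chr6:27814952-27815001, plus strand): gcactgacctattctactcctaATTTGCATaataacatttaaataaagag
H2BC9 (chr6:26251544-26251593, plus strand): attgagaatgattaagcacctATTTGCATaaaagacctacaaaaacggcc
H2BC8 (chr6:26216709-26216758, minus strand): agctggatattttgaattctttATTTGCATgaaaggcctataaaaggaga
H2BC18 (chr1:149812391-149812440, minus strand): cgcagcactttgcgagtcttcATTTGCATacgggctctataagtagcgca

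The octamer, on either strand, was in 14 of 18 H2B and 11 of 14 H2A promoters, against 1.8% of all promoters. In 8 of the 14 H2B promoters it began 45 to 49 bases before the start, and in the other 6 at 104 to 149 bases. Over H2A and H2B together, the median log ratio was 0.16 for the 25 genes with the octamer and 0.165 for the 7 without it. In 10 head-to-head pairs of an H2A and an H2B gene, with starts 194 to 248 bases apart, both members had means above 0. Almost any pair of the 2 families would, as 18 of 18 H2B and 14 of 15 H2A genes were above 0. The median distance between the means was 0.097, and pairs of genes that are not neighbours were not compared. The dye coefficients of the head-to-head pairs had a median distance of 0.31. This distance is not on the scale of the means. Over all genes the means had a spread of 0.115 and the dye coefficients one of 0.38. H2AC14 and H2BC14 had dye coefficients of 0.62 and -0.15, and H2AC17 and H2BC17 of 0.43 and -0.23.

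The H2A genes of the clusters had the same median as H2B, 0.16, but followed the dye more closely. Of 15, 11 were called for the dye coefficient at an adjusted p under 0.05 by limma, against 44.8% of all genes, and 10 of the 11 were above 0 (26.9% of all genes). The family median was 0.45 and 0.64 on replicates 2 and 4, against -0.12 and -0.24 on replicates 1 and 3. H2AC19, H2AC7 and H2AC6 had the highest means as deposited (0.305, 0.30 and 0.30), while turned by dye H2AC4 and H2AC25 would be highest (0.91 and 0.735). H2AC6 was at 0.39, 0.37, -0.39 and 0.82 on replicates 1 to 4. Its fitted log ratio, with both dye orientations weighed equally, ranged from 0.1025 without replicate 1 to 0.4925 without replicate 3. Without replicate 4 it was 0.185. H2AC4 had the widest spread, at 1.03 and 1.07 in the Hy5 orientation and -0.66 and -0.88 in the Cy3 orientation (mean 0.14 ± 1.05, SD, n = 4). H2AC25, a gene of the HIST3 cluster, was at 0.88 and 1.12 in the Hy5 orientation and -0.29 and -0.65 in the Cy3 orientation (mean 0.265). H2AC16 was the only H2A gene of the clusters with a mean below 0 (-0.0125). The 2 features of H2AC15 ran in opposite directions with the dye, with means of -0.05 and 0.175. So did those of H2AC11 (dye coefficients -0.45 and 0.91), H2AC20 (-0.105 and 0.655) and H2AC21 (-0.1075 and 0.4825). H2AC15, H2AC11 and H2AC20 are among the 11 called genes. In H2AC14, H2AC17 and H2AC19 both features had dye coefficients above 0.

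Linker histones bind DNA where it enters and leaves the nucleosome, and 6 replication-dependent H1 genes were measured. H1-4 was above 0 on all 4 arrays, at 0.22, 0.47, 0.19 and 0.20 on replicates 1 to 4 (mean 0.27 ± 0.13, SD, n = 4; adjusted p = 0.321 by limma). H1-2, which like H1-4 is a widely expressed somatic subtype, was at 0.75 and 0.84 in the Hy5 orientation and at -0.07 and -0.23 in the Cy3 orientation (mean 0.32 ± 0.55, SD, n = 4; adjusted p = 0.217 by limma). Replicate 2 stood above the other arrays in H1-4, and without it the mean was 0.20. Turned by dye H1-4 would be at 0.065 and H1-2 at 0.47. H1-5 had 0.39 on replicate 4 and 0, 0 and -0.01 on replicates 1 to 3 (mean 0.095). H1-3 and H1-1 had means of 0.0375 and 0.035, with values on both sides of 0. H1-6, the testis-specific H1t, was below 0 on all 4 arrays, at -0.05, -0.16, -0.19 and -0.09 (mean -0.12 ± 0.06, SD, n = 4; adjusted p = 0.626 by limma).

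All 6 of these H1 promoters held AAACACA, known as the H1 box, on at least 1 strand (on both in H1-2), against 5.76% of all promoters. In 5 of them it lay 105 to 119 bases before the start. The windows from 130 to 81 bases before the start (RefSeq, GRCh38.p14) are shown with the box in capitals for the members with the highest means, H1-2 and H1-4, and for H1-3 and H1-6, which lay near and below 0.
H1-2 (chr6:26056551-26056600, minus strand): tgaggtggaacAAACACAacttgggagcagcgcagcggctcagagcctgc
H1-4 (chr6:26156199-26156248, plus strand): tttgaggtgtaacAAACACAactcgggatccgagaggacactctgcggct
H1-3 (chr6:26235068-26235117, minus strand): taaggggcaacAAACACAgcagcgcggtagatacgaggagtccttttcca
H1-6 (chr6:26108216-26108265, minus strand): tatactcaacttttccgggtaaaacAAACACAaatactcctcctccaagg

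The CCAAT box, on either strand, was in 49 of 49 replication-dependent promoters outside H4 and in 3 of 12 H4 promoters, against 35.7% of all promoters. TATAAA was in 33 of these 49 and in 7 of 12 H4 promoters, against 12% of all. Variants held CCAAT in 10 of 13 and TATAAA in 5 of 13 promoters.

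The H3 genes of the clusters split to both sides of 0. H3 forms the core tetramer with H4, and most cluster genes encode H3.1 or H3.2. Of 13, 5 had an unadjusted p under 0.05, 2 above and 3 below 0, against 9.37% of all genes (4.97% above and 4.4% below). The family median was -0.11. H3C6 was above 0 on all 4 arrays, at 0.20, 0.22, 0.24 and 0.05 (mean 0.18 ± 0.09, SD, n = 4). So was H3C7, at 0.28, 0.09, 0.10 and 0.05 (mean 0.13 ± 0.10, SD, n = 4). This was the average of 3 features, each of them below 0 on at least 1 array. H3C11 was below 0 on all 4, at -0.20, -0.16, -0.36 and -0.35 (mean -0.27 ± 0.10, SD, n = 4; adjusted p = 0.321 by limma). Every value of H3C11 lay below every value of H3C6, and both genes encode H3.1.

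The other low H3 genes were less even. H3C15 had -0.79 on replicate 3 and -0.22, 0.07 and -0.03 on replicates 1, 2 and 4 (mean -0.24). H3C3 was at 0.20, -0.42, -0.16 and -0.53 on replicates 1 to 4 (mean -0.23). H3C13 had a mean of -0.19, H3C8 one of -0.145, and H3-4, a testis-enriched H3 of the HIST3 cluster, one of -0.13. Each of these 5 genes had at least 1 array above 0. H3C12 showed the strongest negative dye coefficient of all histone genes, -0.87, with -0.61 and -0.78 in the Hy5 orientation and 1.19 and 0.89 in the Cy3 orientation (mean 0.17). H3C1, H3C10 and H3C4 had means of 0.20, 0.12 and 0.085, and H3C2 one of -0.11.

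Among the variants, the H3.3 genes lay apart from each other. H3.3 is deposited through the cell cycle, and H3-3A and H3-3B encode the same protein. H3-3B was at -0.26, -0.10, -0.44 and -0.30 on replicates 1 to 4, below 0 on each (mean -0.28 ± 0.14, SD, n = 4; adjusted p = 0.310 by limma). Its 3 features had means of -0.18, -0.38 and -0.27. The first feature was above 0 on replicates 2 and 4 (0.17 and 0.39) and the third on replicate 1 (0.08), so the gene's sign on every array came from the average over features. H3-3A was at -0.23, 0.32, 0.11 and 0.16 (mean 0.09 ± 0.23, SD, n = 4), and the means of its 5 features ran from -0.01 to 0.18. As averages over features, the 2 genes lay on opposite sides of 0 on replicates 2, 3 and 4. On replicate 3 the features of H3-3A were at -0.14, 0.64, -0.54, -0.37 and 0.96. On replicate 4 they ran from -1.01 to 0.92, so its sign there also came from the average. H3-5, a primate H3.3-like gene, had -0.48 and -0.78 in the Hy5 orientation and -0.08 and -0.11 in the Cy3 orientation. Its mean of -0.36 ± 0.33 (SD, n = 4; adjusted p = 0.217 by limma) was the lowest of the 80 genes as deposited and ranked 75 from the lowest of all genes. Turned by dye it would be at -0.27 (adjusted p = 0.021 by limma), above H3C12, H2AZ2, H3-4 and H2AC15.

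The 250 bases before the start of H3-3B are shown because this variant lay below 0 on all 4 arrays while holding, on the strand opposite to the gene, the same octamer as the H2B genes; capitals mark it (RefSeq, GRCh38.p14).
H3-3B promoter (chr17:75779780-75780029, minus strand): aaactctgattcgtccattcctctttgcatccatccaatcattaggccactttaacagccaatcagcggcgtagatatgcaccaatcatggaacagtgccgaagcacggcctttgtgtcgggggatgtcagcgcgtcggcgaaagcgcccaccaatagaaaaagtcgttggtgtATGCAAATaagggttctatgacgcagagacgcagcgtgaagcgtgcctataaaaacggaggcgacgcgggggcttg

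The H2A variants were near 0 or went with the dye. H2AZ1 and H2AZ2 encode H2A.Z, which marks promoters. H2AZ1 was at -0.07, 0.07, -0.05 and -0.47 on replicates 1 to 4 (mean -0.13), and its fitted log ratio without replicate 4 was 0.0058. H2AZ2 had a mean of -0.29 (SE 0.075; adjusted p = 0.288 by limma), but its 2 features differed, at 0.04 and -0.625. The second of these had -1.76 and -2.45 in the Hy5 orientation and 0.98 and 0.73 in the Cy3 orientation. H2AX, whose product is phosphorylated at DNA breaks, had 0.23 and 0.18 in the Hy5 orientation and -0.32 and -0.34 in the Cy3 orientation (mean -0.06). H2AJ was at 0.63 and 0.72 in the Hy5 orientation and -0.38 and -0.35 in the other (mean 0.16). Its features had dye coefficients of 0.92, 0.87 and -0.225, so the last ran against the others. H2AB2 had a mean of 0.11.

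MacroH2A carries a large non-histone domain and is found on the inactive X chromosome. MACROH2A1 was at 0.56 and 0.59 in the Hy5 orientation and -0.32 and -0.43 in the Cy3 orientation (mean 0.10 ± 0.55, SD, n = 4). MACROH2A2 stayed between -0.19 and 0.15 (mean -0.025). The linker variant H1-10 had a dye coefficient of 0.865 and a mean of -0.04, as its arrays were at 0.70 and 0.95 against -0.90 and -0.91. H1-7 and H1-8, germ cell linker histones, had means of 0.07 and -0.0125. H2AP, an X-linked gene of the same symbol pattern, had a mean of 0.0125.

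**Figure D3:**
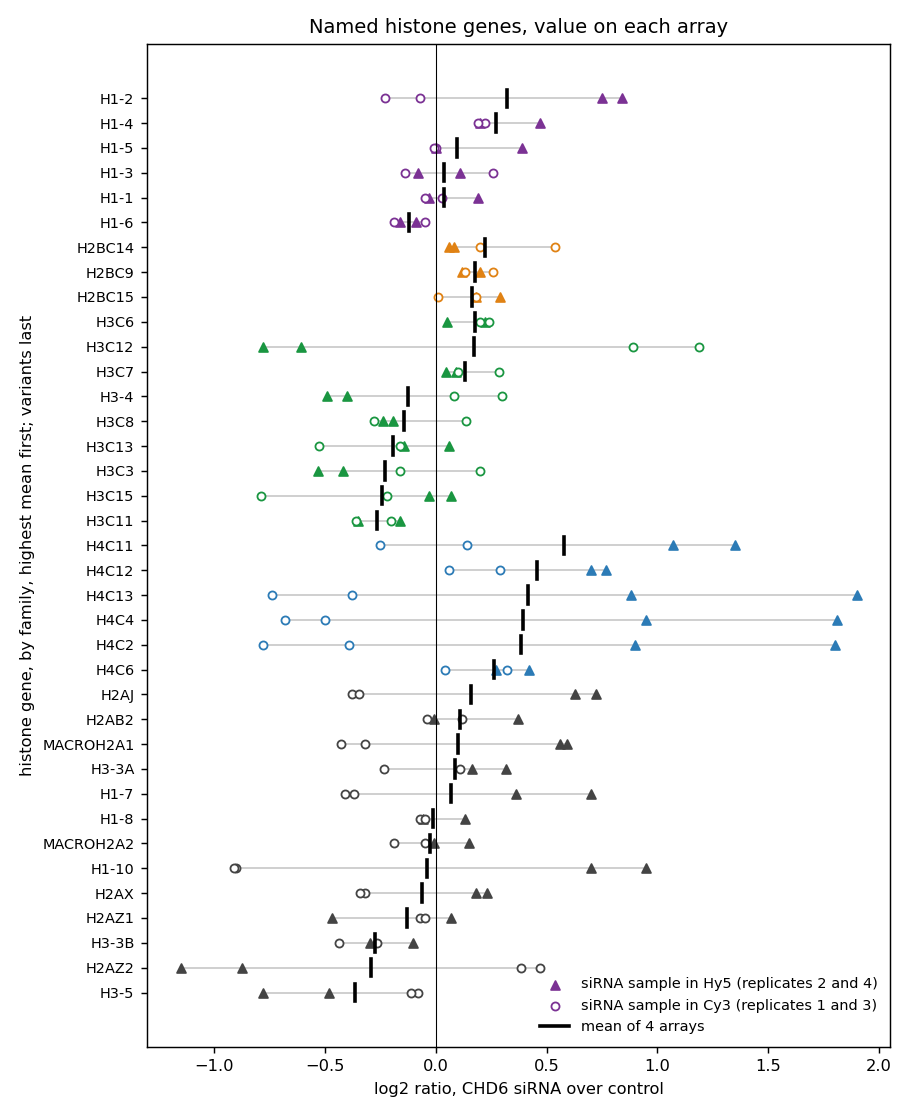
Log2 ratio on each array of the 37 histone genes chosen by the fixed rule, by family, with filled triangles where Hy5 carried the siRNA sample, open circles where Cy3 did and a black bar at the mean of 4 arrays. H1-4, H2BC9 and H3C6 lie to the right of 0 and H3C11 and H3-3B to the left on all 4 arrays, while H4C13, H4C4 and H4C2 change sign with the dye.

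On all 4 arrays, 8 of 80 histone genes were above 0, all of them replication-dependent and in the HIST1 cluster, against 3.56% of all genes. They were H1-4, H2BC14, H2BC9, H2BC15, H3C6, H3C7, H4C12 and H4C6. No single feature of H2BC15 or H3C7 was above 0 on all 4 arrays, so their sign came from the average over features. Below 0 on all 4 were 4 genes, H1-6, H3C11, H3-3B and H3-5, against 3.5% of all genes. By cluster, 48 of 54 HIST1 genes on chromosome 6, 6 of 8 HIST2 genes and 2 of 3 HIST3 genes on chromosome 1 had means above 0. The HIST4 gene H4C16 on chromosome 12 did not.

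The dye coefficient was called by limma for 38 of 80 histone genes, against 44.8% of all genes. Of these, 31 were above 0 (26.9% of all genes) and 7 below 0 (18% of all genes). These 38 would be the called differences if the columns were turned by dye. Among the replication-dependent genes, the 31 with a dye call had a median log ratio of 0.20, with 28 above 0, and the 35 without one had a median of 0.095, with 28 above 0. The group without a dye call had medians of 0.135 and 0.06 on replicates 2 and 4 and of 0.11 and 0.01 on replicates 1 and 3. H4C4, H4C13 and H4C2 had the highest dye coefficients (0.985, 0.975 and 0.97), and H3C12, H2AZ2 and H3-4 the lowest (-0.87, -0.72 and -0.32).

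**Figure D4:**
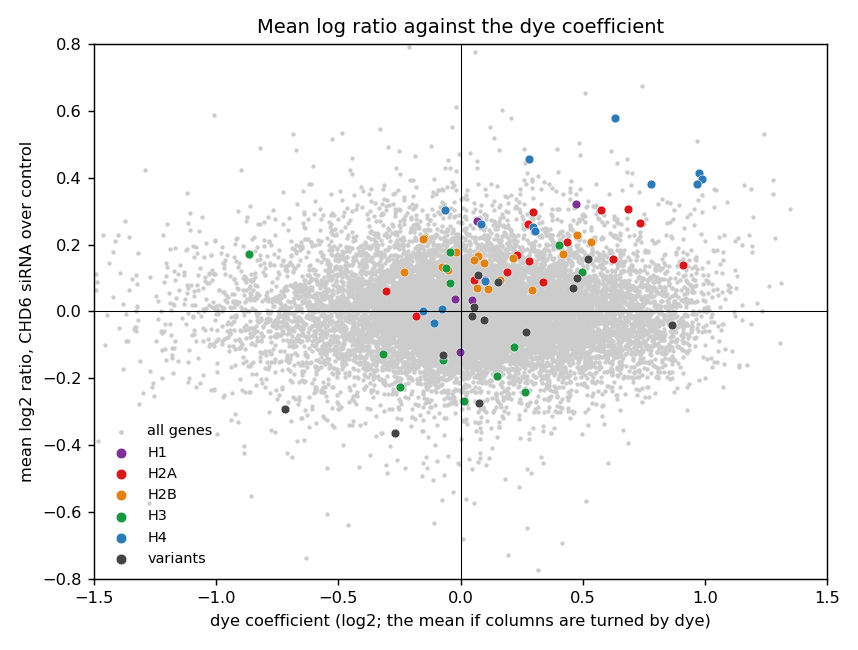
Mean log2 ratio (vertical axis) against the dye coefficient (horizontal axis, log2), with all genes in grey and histone genes coloured by family; 49 genes, none of them histones, lie outside the axes. H4 genes reach the upper right, with means up to 0.58 and dye coefficients up to 0.985, and H2B genes form a narrow band above 0.

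Genes that make and process histone mRNAs were set beside the histone genes. Of 19 measured members of this list, which holds NPAT, SLBP, the U7 snRNP proteins and the cleavage factors, 4 had a mean above 0 and 15 below, with a median of -0.08. Turned by dye, 9 of the 19 would be above 0, with a median of -0.0075. Over all genes 49.1% were above 0 as deposited, and 10443 of 18334 would be when turned. None was called, against 0.0218% of all genes. By limma 2 had an unadjusted p under 0.05, both below 0, a share near the 9.37% of all genes. These 2 are named as the members with the smallest p. HINFP, the H4 gene activator, was at 0.245 and 0.155 on replicates 2 and 4 and at -0.64 and -0.755 on replicates 1 and 3 (mean -0.25 ± 0.52, SD, n = 4; adjusted p = 0.321 by limma). LSM10, a U7 snRNP protein, was at 0.66 and 0.35 in the Hy5 orientation and -0.85 and -0.96 in the other (mean -0.20 ± 0.83, SD, n = 4; adjusted p = 0.478). Both had opposite signs in the dye orientations, and turned by dye they would be at 0.45 and 0.705.

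Histone chaperones and exchange factors carry histones to DNA and replace them there. Of 28 measured, 8 had a mean above 0 (49.1% of all genes), with a median of -0.04. None was called, against 0.0218% of all genes. By limma 1 had an unadjusted p under 0.05, below 0, against 9.37% of all genes. Turned by dye, 13 of the 28 would be above 0, with a median of -0.03, against 10443 of all 18334 genes and a median of 0.034. The chaperone NPM1 was at 0.08, -0.34, -0.21 and -0.38 on replicates 1 to 4 (mean -0.21; adjusted p = 0.439 by limma). CHAF1B, a subunit of the CAF-1 complex that loads H3 and H4 behind the replication fork, was at 0.11, 0.29, -0.07 and 0.30 (mean 0.16; adjusted p = 0.532 by limma).

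S phase genes supply the enzymes and helicase of DNA replication. Of 24 measured, 8 had a mean above 0 (49.1% of all genes), and the median was -0.02. None was called, against 0.0218% of all genes. By limma 3 had an unadjusted p under 0.05, 1 above and 2 below 0, against 9.37% of all genes. Turned by dye, 17 of the 24 would be above 0, with a median of 0.18, against 0.11 for the replication-dependent histone genes. Over all genes 10443 of 18334 would be above 0, with a median of 0.034. FEN1, the flap endonuclease of lagging strand synthesis, had a mean of -0.30, with arrays at 0.38 and -0.065 in the Hy5 orientation and -0.64 and -0.865 in the Cy3 orientation. MCM6, a subunit of the replicative helicase, had a mean of 0.23, with arrays at 0.49 and 0.67 in the Hy5 orientation and -0.09 and -0.16 in the other. Both had an adjusted p of 0.368 by limma. The difference between the lists was not tested.

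Of the 25 histone genes with several features, 20 had feature means of 1 sign, and the median distance between the lowest and the highest feature mean was 0.11. The largest was 0.665, in H2AZ2.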

How the data were processed

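Per the labels' protocols, 200 ng of total RNA were amplified from an oligo-dT primer and labelled for Agilent 2-colour arrays. The authors deposited log ratios, 1 column per array, taken here as log2 with CHD6 siRNA over control siRNA. Scanner software, background correction and normalization were not stated in the labels or the file, intensities were not used, and signal over background is unknown, so precision is limited by having 4 arrays. No value column was left out (0 unused). Features were named through the platform annotation, updated by Entrez identifier to RefSeq GRCh38.p14 (31291 of 31332 features that name 1 gene matched), and averaged per gene.

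limma 3.58.1 in R 4.3.3 fitted an intercept and a dye orientation coefficient to all 18334 genes, with eBayes moderation, and p-values were adjusted by Benjamini-Hochberg across the whole gene table (threshold 0.05). Tested on simulated log ratios of 18334 genes in the same layout, it recovered 78% of changes of 0.5 and 100% of changes of 1 (log2). There were 13 calls among 18134 unaltered genes, and the intercept alone recovered 0 of either size. The simulation changed 100 genes by each size and drew residual spreads from the fitted model. The measured data gave 4 calls, and H4C11 missed the threshold at 0.58. The simulated shares therefore do not tell how often such a change would be called here. The lowest two-sided p that exact sign flips of 4 arrays allow is 0.125.

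Members, lists and models were chosen with earlier results of these data known. The rule named CHD6, all linker histones, 8 set variants, the 5 highest and lowest means of each class, the 3 extreme dye coefficients each way, genes with 1 sign on all 4 arrays and, for each list, called members or the 2 with the smallest p. Other histone genes were named after their values were seen. The lists were histone mRNA transcription and processing, chaperones and exchange, S phase and other cell types. In that last list CD3E and LUM had the smallest p (means -0.115 and 0.096). Promoters came from RefSeq for 74 of 80 genes.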

Additional observations from a re-analysis of the deposited data

Results flagged for a closer look

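A lone array far from the remaining 3 was looked for in 92 groups of 4 values, where chance gives about 4.6, and 4 were found. For H1-4 it was replicate 2, with 0.47, while the remaining values lay between 0.19 and 0.22. Replicate 4 stood out for H1-5, with 0.39 beside values from -0.01 to 0. H2BC11 had its lone value on replicate 3, where it read -0.10 and elsewhere 0.105 to 0.135. In H1-8, replicate 4 gave 0.13 and the other arrays gave -0.07 to -0.05.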

How the results depend on the processing

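Over all genes, 4 were called for the siRNA difference, against 0 with the intercept alone, 8 with the median over features, 7 with centred columns, 7 with robust moderation, 9 with features tested singly, 8219 with the columns turned by dye and 0 to 0 without each replicate. With the columns turned by dye, 38 histone genes were called. The 0 histone calls with the intercept alone or without a replicate say nothing about stability, because these fits called no gene at all. The 38 calls for the dye became 0 when turned, and 24 to 33 without each replicate. The 33 genes at an unadjusted p under 0.05 became 5 with the intercept alone and 12 to 23 without each replicate. With the columns turned, 11 variants had means above 0 and the difference between the class medians was 0.02125. Replication-dependent H1 genes above 0 numbered 3 to 5 without each replicate, with 3 when replicate 2 was left out. Replication-dependent genes above 0 numbered 52 to 55 without each replicate, and 45 when turned.

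With the columns turned by dye, these log ratios had the opposite sign: CD3E 0.21, FEN1 0.455, H1-10 0.865, H1-3 -0.0225, H1-8 0.0475, H2AC15 -0.30, H2AX 0.27, H2BC10 -0.15, H2BC14 -0.15, H2BC17 -0.23, H2BC9 -0.0175, H3-3B 0.075, H3C11 0.0125, H3C12 -0.87, H3C13 0.15, H3C15 0.26, H3C2 0.22, H3C4 -0.045, H3C6 -0.0425, H3C7 -0.061, H4C1 -0.0775, H4C5 -0.15, H4C8 -0.0625, HINFP 0.45, LSM10 0.705, LUM -0.13 and MACROH2A2 0.095. Leaving out each replicate turned the sign of genes near 0, which ranged from -0.0025 to 0.1925 (H1-5), -0.0625 to 0.1375 (H1-3), -0.02 to 0.09 (H1-1), -0.015 to 0.155 (H1-7), -0.06 to 0.035 (H1-8), -0.1025 to 0.0225 (H1-10), -0.065 to 0.015 (MACROH2A2), -0.26 to 0.0058 (H2AZ1), -0.11 to 0.085 (H2AC16), -0.00125 to 0.12375 (H2AC15), -0.04 to 0.21 (H3C4), -0.0925 to 0.0975 (H4C5), -0.0225 to 0.0375 (H4C1) and -0.085 to 0.265 (H4C7). Values and counts by sign without a replicate rest on the fitted log ratio with the dye coefficient. It weighs both dye orientations equally and is not the plain mean of the remaining arrays. The cause was not tested. No paired analysis was possible because each array already sets CHD6 siRNA against control siRNA. Counts by sign and at an unadjusted p were added after the data were seen.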

Other observations

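A feature annotated to both H3C15 and H3C14 was in no comparison above. It was at 0.20, 0.02, 0.60 and 0.09 on replicates 1 to 4, with a mean of 0.23, while the feature of H3C15 alone had a mean of -0.24.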
